A study of Mus musculus with 12 samples.

Results

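The 10 genes described here mark endothelial cells or act in the growth of blood vessels, and they were chosen by symbol for that role. They are the ligand Vegfa, its receptors Kdr and Flt1, the junction proteins Pecam1 and Cdh5, the receptor Tek with its ligand Angpt2, the capillary protein Plvap, the tip cell product Esm1 and the receptor S1pr1. They are 10 of the 54532 genes counted in each library, and all 10 passed the filter on low counts that left 17658 genes to be tested. The RNA came from colon tissue of male C57BL/6 mice, obtained at 6 weeks of age, in 4 groups of 3 samples. The Con group received no DSS, and the labels call it untreated where the methods give vehicle by gavage. The DSS group drank 3% dextran sulfate sodium (DSS, a polymer that injures the colon epithelium) for 5 days and received vehicle. The UA+DSS group received the same DSS with ursolic acid (UA, a plant triterpenoid) at 200 mg/kg by daily gavage for 7 days, beginning 1 day before the DSS. The DSS+UA group received the same DSS and the same daily dose of UA for 4 days, beginning 3 days after the DSS had started. The discussion of the study gives other durations of UA than its methods, and the labels name Trizol for the RNA where the methods name the RNeasy kit. No group received UA without DSS, so each UA group is a model of UA together with the injury.

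The libraries held 15566216 to 19498383 counts. Levels are given as CPM (the usual unit of read counts relative to library size, here the size scaled by TMM factors of 0.871 to 1.09). A library is written as its group followed by its replicate number, so that DSS 2 is replicate 2 of the DSS group. Among the 10 genes the lowest count was 11, for Esm1 in a DSS+UA library, and the highest was 4281, for Plvap in a DSS library, so Esm1 was measured with the largest counting error. Differences were tested with the quasi-likelihood test of edgeR, fitted once to the 12 libraries together, with p adjusted over the 17658 genes, and a gene is called raised or lowered below an adjusted p of 0.05. The plus or minus beside a log2 fold change is its standard error, with 3 libraries per group.

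Blood vessels are lined by endothelial cells, which control what leaves the blood and where leukocytes enter the tissue. Vascular endothelial growth factors bind receptor tyrosine kinases on these cells and drive sprouting and permeability, angiopoietins act through the Tie receptors to steady or loosen the vessel wall, and sphingosine-1-phosphate from the blood tightens the junctions. The colon mucosa holds a dense bed of fenestrated capillaries under the epithelium, and inflammation of the bowel is known to widen, loosen and remodel it.

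Promoter sequences were found in the RefSeq table (build GRCm38.p6) for 5 of the 10 genes, namely Vegfa, Kdr, Flt1, Tek and Esm1. Those of Vegfa, Kdr and Flt1 are shown because this ligand and its receptors were lowered in DSS+UA against Con, and that of Esm1 because it had the largest log2 fold change of the 10 genes. Each run holds the 250 bases before the transcription start, 5′ to 3′ on the gene's own strand. The Vegfa run lies at chr17:46032378-46032627 (minus strand), the Kdr run at chr5:75978456-75978705 (minus strand), the Flt1 run at chr5:147726012-147726261 (minus strand) and the Esm1 run at chr13:113209409-113209658 (plus strand). Capitals mark the GC box read by SP1 (GGGCGG) and the core read by ETS factors in the forms CGGAAG or AGGAAG only, each on either strand.
Vegfa: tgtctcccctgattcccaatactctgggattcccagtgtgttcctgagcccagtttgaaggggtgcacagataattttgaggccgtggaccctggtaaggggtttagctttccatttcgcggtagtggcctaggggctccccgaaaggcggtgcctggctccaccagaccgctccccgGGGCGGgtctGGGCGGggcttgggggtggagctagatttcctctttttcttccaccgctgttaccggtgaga
Kdr: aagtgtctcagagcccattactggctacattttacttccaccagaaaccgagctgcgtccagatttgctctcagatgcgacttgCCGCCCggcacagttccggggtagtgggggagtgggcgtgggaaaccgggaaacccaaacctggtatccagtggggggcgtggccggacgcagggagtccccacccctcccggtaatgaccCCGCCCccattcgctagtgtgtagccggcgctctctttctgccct
Flt1: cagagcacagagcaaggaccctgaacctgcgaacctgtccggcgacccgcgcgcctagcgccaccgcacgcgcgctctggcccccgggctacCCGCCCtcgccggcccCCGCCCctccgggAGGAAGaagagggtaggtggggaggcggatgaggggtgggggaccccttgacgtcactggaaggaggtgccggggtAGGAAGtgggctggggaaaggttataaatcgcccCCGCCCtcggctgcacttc
Esm1: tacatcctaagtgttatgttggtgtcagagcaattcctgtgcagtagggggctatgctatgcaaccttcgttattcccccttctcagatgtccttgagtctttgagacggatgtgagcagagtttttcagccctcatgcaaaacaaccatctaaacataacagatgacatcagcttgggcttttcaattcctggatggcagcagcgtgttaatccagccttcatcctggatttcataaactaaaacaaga

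GC boxes were found in the Vegfa, Kdr and Flt1 promoters, at -72 and -62 in Vegfa, at -166 and -45 in Kdr, and at -158, -142 and -19 in Flt1, where the position is that of the first base counted back from the start. Such a box was present in 32.7% of 32841 promoters of the same length. ETS factors bind many endothelial promoters, and their core was searched only as CGGAAG or AGGAAG. These forms were found in 1 of the 5 promoters, Flt1, at -129 and -53, against 39.2% of all promoters. Other forms of the ETS core were not searched, so the search cannot show whether the other promoters lack one. Flt1 also held a TATA box (TATAAA) at -31, which 12.4% of promoters held. The hypoxia response core was searched only as ACGTG, which was found in 0 of the 5 and in 16.6% of all promoters. Other forms of this core, and bases upstream of these windows, were not searched. The search therefore cannot show whether these genes lack such a core. Other motifs were searched on both strands and found in 0 of the 5 windows. The AP-1 motif (TGANTCA) was present in 6.75% of all promoters. The FOX motif (TGTTTAC) was present in 3.17%. The GATA motif (AGATAAG) was present in 2.74%, and the NF-kappaB motif in 1.41%. The Tek and Esm1 windows held none of the motifs searched, and no 2 of the matches in the 5 windows overlapped. GC content was 59.2% in Vegfa, 61.6% in Kdr, 70.4% in Flt1, 51.2% in Tek and 44.0% in Esm1.

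The genes differed in abundance, which was compared per length of exons (CPM per kb, mean of 3 libraries). Plvap, which forms the diaphragms of fenestrated capillaries, had the highest mean level in every group, with 57.2 in Con, 76.5 in DSS, 35.5 in UA+DSS and 32.2 in DSS+UA, and its lowest library exceeded the highest library of the next gene in every group. Vegfa was next in Con (16.7), UA+DSS (11.9) and DSS+UA (7.81). In DSS it stood at 12.4, after Pecam1 (19.1), S1pr1 (17.4) and Cdh5 (14.9), and the libraries of these neighbours overlapped. The lowest level was that of Angpt2 in Con (1.63) and UA+DSS (1.37) and that of Esm1 in DSS (1.87) and DSS+UA (0.365). Neighbours from Cdh5 down to Angpt2 in Con and from Flt1 down to Esm1 in DSS overlapped in their libraries, so their order was not resolved. In DSS+UA the libraries of Esm1 lay below those of every other gene.

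**Figure D1:**
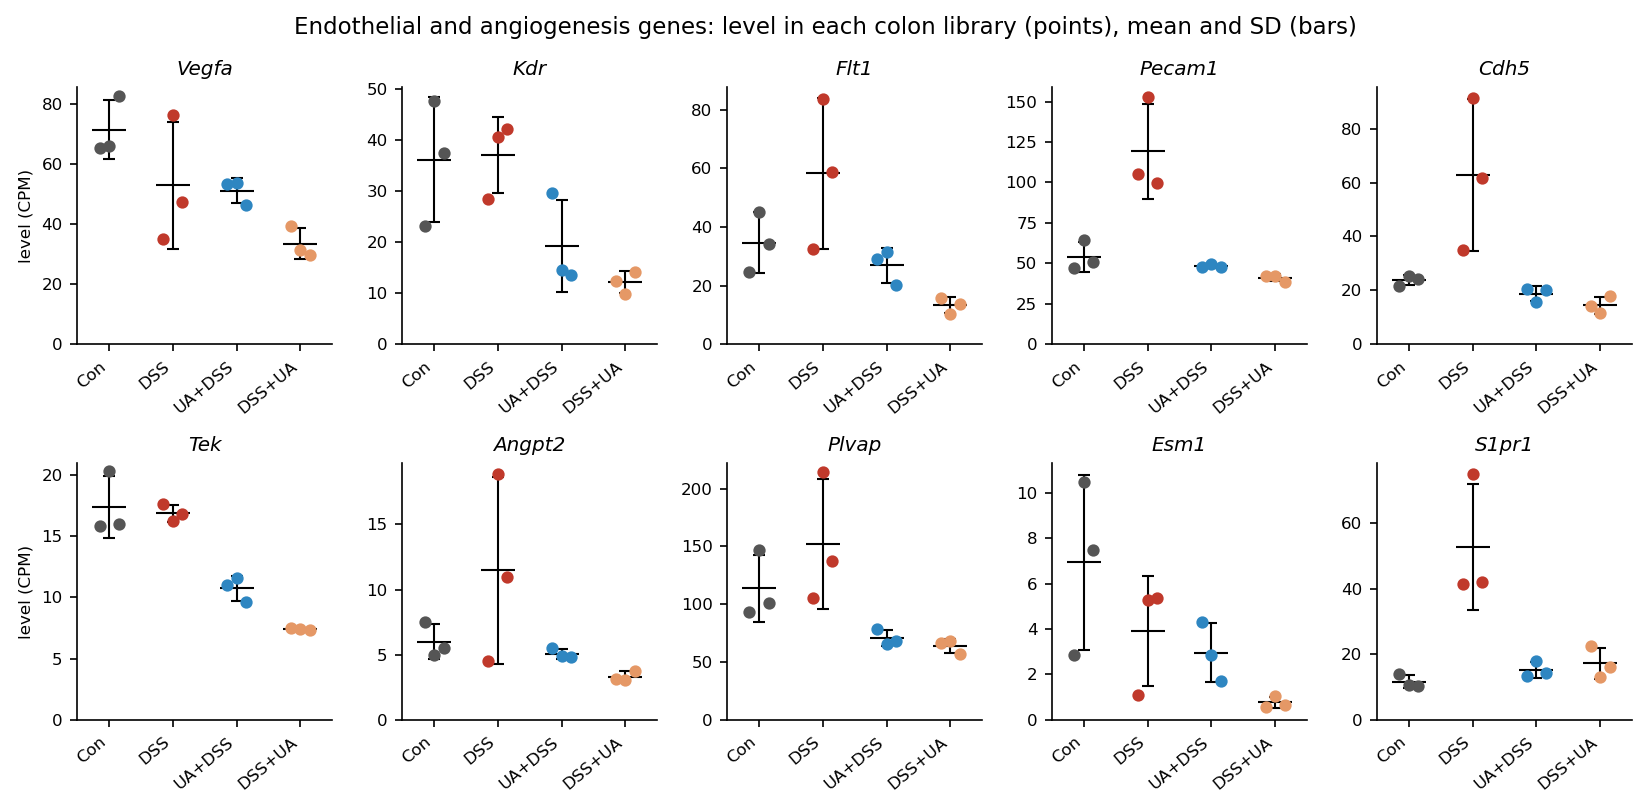
Level of each gene in CPM (vertical axis, starting at 0) in each colon library (points) of the 4 groups, with bars for the mean and SD of 3 libraries. Pecam1, Cdh5 and S1pr1 stand higher in each DSS library than in any Con library, and Tek forms a step from Con and DSS to UA+DSS to DSS+UA.

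The first question is how these genes differed between DSS and Con. Against Con, 3 of the 10 genes were called raised in DSS (Pecam1, Cdh5 and S1pr1), where 13.9% of all genes tested were called raised and 12.6% lowered, and the other 7 were not called. These 3 were also higher in each DSS library than in any Con library, where 21.0% of all genes were. The median log2 fold change of the 10 genes was 0.59, beside -0.034 over all genes. The second question is how they differed between each UA group and DSS. Of the 10 genes, 6 were called lowered in UA+DSS against DSS (Flt1, Pecam1, Cdh5, Tek, Plvap and S1pr1), where 10.5% of all genes were lowered and 8.21% raised, and the median was -1.12 beside -0.019. The same 6 were lower in each UA+DSS library than in any DSS library, where 21.5% of all genes were. In DSS+UA against DSS, 8 were called lowered (all but Vegfa and Esm1), where 5.0% of all genes were lowered and 2.54% raised, and the median was -1.62 beside 0.02. All but Vegfa were lower in each DSS+UA library than in any DSS library, 9 of the 10, where 16.1% of all genes were. Both of these comparisons use the same DSS libraries. In both, the groups also differed without overlap in a score of position along the colon, described below. In bulk tissue, fewer cells of a type and less RNA per cell cannot be told apart.

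The UA groups were also compared with Con and with each other. Against Con, edgeR's quasi-likelihood test called 0 of the 10 genes in UA+DSS, with 3 at an unadjusted p below 0.05 (12.1% of all genes). DESeq2 called 1 of the 10 (Tek) and limma-voom 0. Over all genes edgeR called 1 in this comparison (0.00566%), DESeq2 376 and limma-voom 0. The libraries of 4 genes (Vegfa, Cdh5, Tek and Plvap) lay below every Con library, where 11% of all genes did so. In DSS+UA against Con, 6 of the 10 were called lowered (Vegfa, Kdr, Flt1, Tek, Plvap and Esm1), where 8.95% of all genes were lowered and 9.13% raised, and the median was -0.97 beside -0.028. The libraries of 9 of the 10 genes, all but S1pr1, lay below every Con library, where 19.2% of all genes did so. Between UA+DSS and DSS+UA, edgeR called 0 of the 10, with 4 at an unadjusted p below 0.05 (33.8% of all genes). DESeq2 called 3 of the 10 and limma-voom 0. Over all genes edgeR called 2961 between these groups (16.8%), DESeq2 4349 and limma-voom 2838. In that comparison 6 genes (Vegfa, Flt1, Pecam1, Tek, Angpt2 and Esm1) were higher in each UA+DSS library than in any DSS+UA library, where 22.7% of all genes were.

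**Figure D2:**
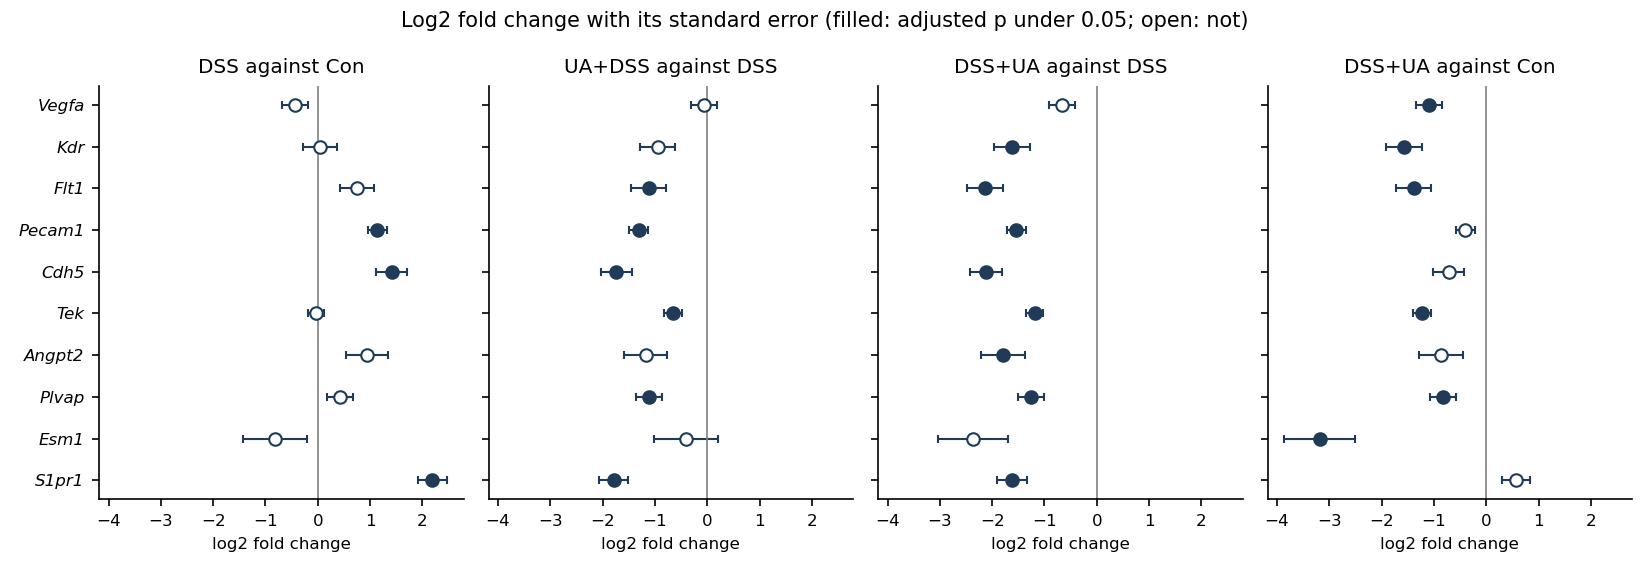
Log2 fold change (horizontal axis) of each gene in 4 comparisons, with bars for 1 standard error and filled points for an adjusted p below 0.05. The points of all 10 genes lie below 0 against DSS in both UA groups, and S1pr1 alone lies above 0 in DSS+UA against Con.

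The calls changed when single libraries were left out and when a score of position along the colon was added to the fit. Without DSS+UA 3, the genes called in DSS+UA against DSS fell from 8 to 2 (Pecam1 and Cdh5), and the calls over all genes fell from 1331 to 25. Without DSS+UA 2 they were 3 (Pecam1, Cdh5 and Tek), with 142 over all genes. The 6 genes called in UA+DSS against DSS became 2 without UA+DSS 2 (Pecam1 and S1pr1) and 3 without UA+DSS 3 (with Cdh5). Over all genes the calls fell from 3300 to 183 and 1390 in these fits. In DSS+UA against Con the 6 became 2 without DSS+UA 3 (Kdr and Tek) and 3 without Con 3 (with Esm1). Over all genes the calls there fell from 3193 to 1062 and 1563. In DSS against Con the 3 calls were kept without any 1 library, and without DSS 1 Flt1 and Angpt2 joined them.

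The position score was made from Hox genes, which are expressed in an order along the gut. The position score is the mean log2 CPM of 5 distal Hox genes minus that of 6 proximal ones. It was -3.03 and -1.83 in Con 2 and Con 3 and 5.53 in Con 1, so 1 control library had a distal reading and the others a proximal one. It was 0.367 to 3.1 in DSS, -5.7 to -4.16 in UA+DSS and 4.11 to 5.06 in DSS+UA. The UA+DSS libraries overlapped no other group, and those of DSS and DSS+UA did not overlap each other. Treatment and position therefore cannot be told apart by the groups alone in any comparison with UA+DSS or in DSS+UA against DSS. With the score as a covariate, the genes called were 4 of the 10 in DSS against Con (with Flt1), 0 in UA+DSS against DSS, 5 with late UA (Flt1, Pecam1, Cdh5, Tek and S1pr1) and 1 in DSS+UA against Con (Tek). Over all genes the calls became 5382, 3, 199 and 2176 in the same order. The log2 fold changes of the 6 genes called in UA+DSS against DSS stayed negative with the covariate, from -1.97 ± 0.45 for Cdh5 to -0.85 ± 0.24 for Tek, with larger standard errors. They were larger in size than without the covariate for all of these but S1pr1, as for Flt1 at -1.87 ± 0.43. In DSS+UA against Con the log2 fold changes of the 6 called genes were smaller in size with the covariate, as for Flt1 at -0.85 ± 0.33. In DSS+UA against DSS those of the called genes other than Angpt2 and S1pr1 were also smaller, as for Kdr at -1.26 ± 0.32.

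**Figure D3:**
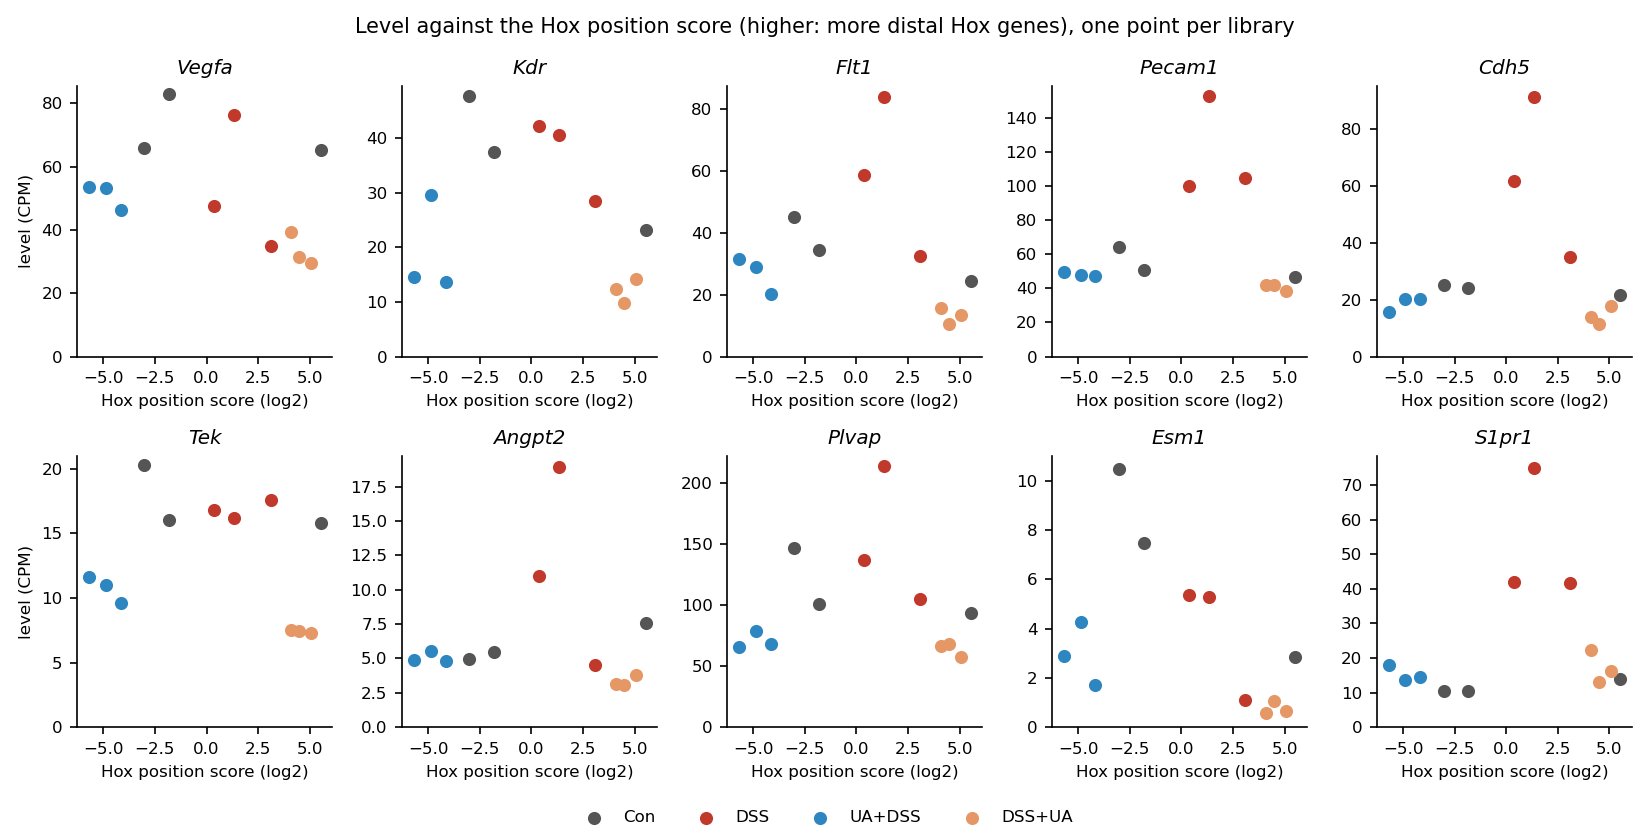
Level in CPM (vertical axis, starting at 0) against the Hox position score (horizontal axis, log2 units, higher for more distal Hox genes), 1 point per library and 1 panel per gene. The control library with the distal score lies below the other controls for every gene but Angpt2 and S1pr1, for which it lies above them.

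Vegfa, the main growth factor for endothelial cells, is made mainly by epithelium, stroma and macrophages. Its level was 65.4, 66 and 82.8 CPM in Con 1 to 3 and 35, 76.3 and 47.5 CPM in DSS 1 to 3. It was 53.4, 53.7 and 46.3 CPM in the UA+DSS libraries and 39.3, 31.5 and 29.6 CPM in the DSS+UA libraries. The DSS libraries spread over the range of the other groups, with DSS 2 as high as a control, whereas the DSS+UA libraries all lay below the controls and below UA+DSS. Vegfa fell in DSS+UA against Con, by 1.09 ± 0.25 on the log2 scale (edgeR's quasi-likelihood test, adjusted p = 0.0155). Vegfa lost this call without Con 3, without DSS+UA 3 and with the position score, where the log2 fold change was -0.93 ± 0.29. In DSS against Con its log2 fold change was -0.43 ± 0.25 (edgeR, adjusted p = 0.211), and in DSS+UA against DSS -0.67 ± 0.25 (edgeR, adjusted p = 0.104), neither of them called. Without DSS 2 the first of these became -0.79 and was called.

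The other ligands of the family moved in other ways in DSS. Placental growth factor, Pgf, which binds Flt1, rose by 2.45 ± 0.50 on the log2 scale in DSS against Con, from a mean of 0.706 to 3.88 CPM (edgeR, adjusted p = 0.00683). Vegfb, also a ligand of Flt1, fell by 0.90 ± 0.24 (edgeR, adjusted p = 0.0203) and rose again in UA+DSS against DSS, by 0.78 ± 0.24 (edgeR, adjusted p = 0.0447). Pgf fell in UA+DSS against DSS (-1.75 ± 0.48), as did the lymphatic growth factor Vegfd (-2.22 ± 0.56). Vegfc, the other lymphatic growth factor, was called in none of the 6 comparisons, with a log2 fold change of -0.13 ± 0.34 in DSS against Con and -0.41 ± 0.34 in UA+DSS against DSS. Of the 7 other genes of the list of VEGF ligands and receptors, 2 were raised and 1 lowered in DSS against Con. UA+DSS against DSS had 1 raised and 3 lowered, and 2 were lowered in DSS+UA.

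Kdr, the receptor that carries most of the growth signal of Vegfa, was at 23.2, 47.6 and 37.4 CPM in Con 1 to 3 and at 28.5, 40.5 and 42.2 CPM in DSS. It was at 29.5, 14.5 and 13.6 CPM in the UA+DSS libraries and at 12.3, 9.83 and 14.2 CPM in the DSS+UA libraries. Con and DSS overlapped throughout, the DSS+UA libraries all lay below them, and UA+DSS 1 stood apart from the other UA+DSS libraries at the level of the lower controls. Kdr fell by 1.57 ± 0.34 on the log2 scale in DSS+UA against Con (edgeR, adjusted p = 0.0132) and by 1.62 ± 0.34 in DSS+UA against DSS (edgeR, adjusted p = 0.0261), a fold of 2.98 and 3.07 below each. The second call was lost under 6 of 21 alternative settings, among them leaving out any of the DSS+UA libraries. Kdr in UA+DSS against DSS had a log2 fold change of -0.95 ± 0.34 (edgeR, adjusted p = 0.0683), and without UA+DSS 1 it was -1.40 and called.

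Flt1, the other Vegfa receptor, binds it more tightly and signals less, and a secreted form of it acts as a decoy. Its level was 24.5, 45.2 and 34.3 CPM in Con, 32.4, 83.8 and 58.7 CPM in DSS, 29, 31.4 and 20.2 CPM in the UA+DSS libraries and 15.7, 10.4 and 13.6 CPM in the DSS+UA libraries. DSS 2 was the highest of the 12 libraries and the DSS+UA libraries were the 3 lowest. Flt1 fell by 2.14 ± 0.35 on the log2 scale in DSS+UA against DSS, a 4.42-fold difference (edgeR, adjusted p = 0.0134), and by 1.39 ± 0.34 in DSS+UA against Con (edgeR, adjusted p = 0.0205). Flt1 lost these calls under 2 and 5 of 21 alternative settings. It fell by 1.12 ± 0.34 in UA+DSS against DSS (edgeR, adjusted p = 0.0401), a call lost under 11 of 21 alternative settings. In DSS against Con its log2 fold change was 0.75 ± 0.33 and not called (edgeR, adjusted p = 0.113).

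The coreceptors and the lymphatic receptor of the family were also measured. Flt4, the receptor of Vegfc and Vegfd on lymphatic endothelium, rose by 1.38 ± 0.44 in DSS against Con on the log2 scale and fell by 1.54 ± 0.45 in UA+DSS and by 2.21 ± 0.46 in DSS+UA against DSS. Nrp1, a coreceptor of Kdr, fell by 1.51 ± 0.28 in DSS+UA relative to DSS, and by 0.88 ± 0.28 relative to Con. Nrp2, a coreceptor also found in lymphatic vessels and smooth muscle, fell by 2.08 ± 0.46 in DSS+UA against Con (edgeR, adjusted p = 0.0154). With the position score neither was called in DSS+UA against Con, and the log2 fold changes were -0.56 for Nrp1 and -0.69 for Nrp2. These genes are named by the rule on relatives of Vegfa, and each value is a log2 fold change from the same fit.

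Pecam1 and Cdh5 hold endothelial cells to each other. Pecam1 (CD31), which also lies on platelets and leukocytes, was at 46.8, 64.5 and 51 CPM in Con and at 105, 153 and 99.8 CPM in DSS. It was at 47.9, 49.6 and 47.4 CPM in the UA+DSS libraries and at 42.1, 42.2 and 38.6 CPM in the DSS+UA libraries. Each DSS library was above every other library, and the DSS+UA libraries were the lowest of all. Pecam1 rose by 1.14 ± 0.18 on the log2 scale in DSS against Con, a 2.21-fold difference (edgeR, adjusted p = 0.00282), and fell by 1.31 ± 0.18 in UA+DSS (edgeR, adjusted p = 0.00717) and by 1.54 ± 0.18 in DSS+UA against DSS (edgeR, adjusted p = 0.00386). The calls in DSS against Con and in DSS+UA against DSS held under each of the 21 alternative settings, and that in UA+DSS was lost with the position score alone.

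Cdh5 (VE-cadherin), the adhesion protein of endothelial junctions, was at 21.6, 25.3 and 24.1 CPM in Con, 35, 91.3 and 61.8 CPM in DSS, 20.4, 15.7 and 20.2 CPM in the UA+DSS libraries and 14.1, 11.4 and 17.7 CPM in the DSS+UA libraries. The controls lay within a narrow range, the DSS libraries lay above it without overlap and differed widely among themselves, and both UA groups lay below it. Cdh5 rose by 1.41 ± 0.30 on the log2 scale in DSS against Con, 2.65-fold (edgeR, adjusted p = 0.00757). It fell by 1.74 ± 0.30 in UA+DSS (edgeR, adjusted p = 0.0099) and by 2.12 ± 0.30 in DSS+UA against DSS (edgeR, adjusted p = 0.00767), 3.35-fold and 4.36-fold below DSS. Cdh5 lost the call in UA+DSS without UA+DSS 2 and with the position score. Against Con the log2 fold changes were -0.33 ± 0.29 in UA+DSS and -0.72 ± 0.29 in DSS+UA, not called (edgeR, adjusted p = 0.64 and 0.105).

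Pecam1 and Cdh5 belong to a list of 26 genes of endothelial junctions and identity. Of the other 24, 13 were raised and 1 was lowered in DSS against Con, with a median log2 fold change of 0.73. Vwf, the clotting factor stored in endothelium and platelets, rose by 0.95 ± 0.16 (edgeR, adjusted p = 0.00331), and Clec14a, an endothelial surface lectin, was the gene lowered, by 0.99 ± 0.31 (edgeR, adjusted p = 0.0377). Of the 24, 20 were lowered in UA+DSS against DSS, with a median of -1.08. In DSS+UA against DSS 14 were lowered, with a median of -1.31. Tie1 fell by 1.34 ± 0.20 in the first and Calcrl, a receptor of adrenomedullin, by 1.82 ± 0.17 in the second. In DSS+UA against Con 9 of the 24 were lowered and none raised, with a median of -0.81. With the position score as a covariate, 13 of the 24 were raised in DSS against Con, 10 and 5 were lowered in DSS+UA against DSS and against Con, and none was called in UA+DSS against DSS.

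Tek (Tie2), the angiopoietin receptor that keeps vessels quiescent, was even within each group. It was at 15.8, 20.3 and 16 CPM in Con, 17.6, 16.2 and 16.8 CPM in DSS, 11, 11.6 and 9.62 CPM in the UA+DSS libraries and 7.52, 7.42 and 7.31 CPM in the DSS+UA libraries. Con and DSS overlapped, every UA+DSS library lay below them and every DSS+UA library below UA+DSS. Tek fell by 1.23 ± 0.17 on the log2 scale in DSS+UA against Con (edgeR, adjusted p = 0.00447), a call kept under each of the 21 alternative settings, and by 1.19 ± 0.17 in DSS+UA against DSS (edgeR, adjusted p = 0.00734). It fell by 0.66 ± 0.17 in UA+DSS against DSS (edgeR, adjusted p = 0.0224), a call lost under 6 of the 21. Between UA+DSS and DSS+UA the log2 fold change was 0.53 ± 0.17 with an adjusted p of 0.0504 by edgeR, and DESeq2 called it.

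Angpt2, which is released by activated endothelium and loosens vessels by opposing the signal of Tek, was among the scarcest of the 10. It was at 7.54, 4.99 and 5.5 CPM in Con, 4.51, 18.9 and 11 CPM in DSS, 5.51, 4.87 and 4.83 CPM in the UA+DSS libraries and 3.16, 3.03 and 3.77 CPM in the DSS+UA libraries. DSS 1 was below every control while DSS 2 was the highest library, and the DSS+UA libraries were the 3 lowest. Its log2 fold change in DSS against Con was 0.94 ± 0.41 and not called (edgeR, adjusted p = 0.111), and without DSS 1 it was 1.32 and called. In DSS+UA against DSS it fell by 1.79 ± 0.42 (edgeR, adjusted p = 0.0348), a call lost under 11 of 21 alternative settings. Angpt1, the stabilising ligand of Tek made by pericytes, fell by 1.25 ± 0.38 in UA+DSS and by 1.96 ± 0.40 in DSS+UA against DSS. Tie1, the partner receptor of Tek, rose by 1.12 ± 0.20 in DSS against Con and fell by 1.71 ± 0.20 in DSS+UA against DSS. Ptprb, the phosphatase that dampens Tek, fell by 2.0 ± 0.21 in DSS+UA relative to DSS, and by 1.59 ± 0.21 relative to Con (edgeR, adjusted p = 0.00277 and 0.00374). Of the 4 other genes of the angiopoietin list, 1 was raised in DSS against Con and 3 were lowered in each UA group against DSS.

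Plvap was at 93.4, 147 and 101 CPM in Con, 105, 214 and 137 CPM in DSS, 78.6, 65.4 and 67.9 CPM in the UA+DSS libraries and 66.5, 68.1 and 57.1 CPM in the DSS+UA libraries. Con and DSS overlapped, and each library of both UA groups lay below each of their libraries. Plvap fell by 1.11 ± 0.25 on the log2 scale in UA+DSS (edgeR, adjusted p = 0.0168) and by 1.25 ± 0.25 in DSS+UA against DSS (edgeR, adjusted p = 0.0235), 2.16-fold and 2.39-fold. Plvap lost these calls under 3 and 4 of 21 alternative settings. It fell by 0.83 ± 0.25 in DSS+UA against Con (edgeR, adjusted p = 0.0423), a call lost under 11 of 21 alternative settings. Against Con its log2 fold change in UA+DSS was -0.69 ± 0.25 and not called (edgeR, adjusted p = 0.338). Of 11 other genes of capillaries and permeability, edgeR called 0 in DSS against Con, with 3 at an unadjusted p below 0.05, 1 by DESeq2 and 0 by limma-voom. Of the same 11 genes, 1 was lowered in UA+DSS against DSS (Cav2, a caveolin, -1.14 ± 0.18), 5 were lowered in DSS+UA against DSS (among them Cd36, a fatty acid transporter of capillaries, -1.44 ± 0.25) and 4 in DSS+UA against Con.

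Esm1 (endocan), a secreted product of tip cells at the front of sprouts, was the scarcest gene in DSS and in DSS+UA. It was at 2.84, 10.5 and 7.48 CPM in Con 1 to 3 and at 1.1, 5.3 and 5.35 CPM in DSS 1 to 3. It was at 4.29, 2.87 and 1.7 CPM in the UA+DSS libraries and at 0.579, 1.05 and 0.665 CPM in the DSS+UA libraries. Each DSS+UA library lay below every other library, and Con 1 and DSS 1, which had the most distal position score of their groups, were each the lowest library of their group. Esm1 fell by 3.18 ± 0.68 on the log2 scale in DSS+UA against Con, a 9.03-fold difference (edgeR, adjusted p = 0.0126), and the call was lost without DSS+UA 3 and with the position score, under which the log2 fold change was -1.90 ± 0.59. In DSS+UA against DSS its log2 fold change was -2.36 ± 0.67 with an adjusted p of 0.0526 by edgeR, and DESeq2 called it. Of 12 other genes of tip cells and sprouting, 5 were raised in DSS against Con, among them Nid2 (1.74 ± 0.27), a basement membrane protein, and Cxcr4 (2.81 ± 0.48), a chemokine receptor also on leukocytes, and Kcne3 was lowered (-1.38 ± 0.35), which is also an epithelial channel subunit. Of the 12, 5 and 4 in UA+DSS and DSS+UA against DSS were lowered, including Nid2 (-1.55 ± 0.26 and -1.76 ± 0.27) and Plxnd1, a semaphorin receptor (-1.67 ± 0.25 and -1.62 ± 0.25).

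S1pr1, the sphingosine-1-phosphate receptor that tightens endothelial junctions and also guides lymphocytes, had the largest difference of the 10 genes in DSS. It was at 13.9, 10.5 and 10.4 CPM in Con, 41.6, 75.1 and 42 CPM in DSS, 13.5, 18.1 and 14.4 CPM in the UA+DSS libraries and 22.4, 13.1 and 16.1 CPM in the DSS+UA libraries. The DSS libraries lay above all others without overlap, and both UA groups overlapped Con. S1pr1 rose by 2.19 ± 0.28 on the log2 scale in DSS against Con, 4.57-fold (edgeR, adjusted p = 0.00144), under each of the 21 alternative settings. It fell by 1.79 ± 0.28 in UA+DSS (edgeR, adjusted p = 0.00812) and by 1.62 ± 0.28 in DSS+UA against DSS (edgeR, adjusted p = 0.0146), and the last call was lost without DSS+UA 2 or DSS+UA 3. S1pr1 lost the call in UA+DSS against DSS with the position score alone (-1.59 ± 0.43). Against Con its log2 fold changes were 0.40 ± 0.27 in UA+DSS and 0.57 ± 0.27 in DSS+UA, both uncalled (edgeR, adjusted p = 0.554 and 0.159).

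Other genes of sphingosine-1-phosphate were called with S1pr1. Of 9 others tested, DSS against Con had 6 raised and 1 lowered. UA+DSS against DSS had 1 raised and 5 lowered, and 3 were lowered in DSS+UA. Sphk1, the inducible kinase that makes the lipid, rose by 3.63 ± 0.57 on the log2 scale in DSS, from a mean of 2.99 to 36.9 CPM (edgeR, adjusted p = 0.00285). Sphk2, the other kinase, fell by 0.58 ± 0.18 (edgeR, adjusted p = 0.0363). Plpp3, an enzyme that breaks down extracellular phospholipids of this kind, rose by 1.16 ± 0.24 in DSS and fell by 1.63 ± 0.25 in DSS+UA against DSS.

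The 10 genes were then set against other endothelial genes, to see which of them moved more or less than the endothelial signal as a whole. The reference was the mean log2 CPM of 10 genes outside the set (Tie1, Esam, Egfl7, Erg, Robo4, Ecscr, Clec14a, Mmrn2, Sox7 and Sox18). It was 3.65 to 3.8 in Con, 4.02 to 4.73 in DSS, 3.18 to 3.39 in UA+DSS and 2.99 to 3.11 in DSS+UA, and no groups overlapped. Of the 10 reference genes, 6 were raised and 1 was lowered in DSS against Con, and 8 and 7 were lowered in UA+DSS and DSS+UA against DSS. All 10 reference genes also belong to the list of endothelial junctions and identity, and Tie1 to the angiopoietin list. These counts therefore repeat genes already counted there. With 3 libraries against 3 the two-sided exact permutation test cannot go below p = 0.1, so none of these relative differences can pass 0.05.

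Relative to this reference, S1pr1 was 1.53 log2 units higher in DSS than in Con, Cdh5 0.70 higher and Pecam1 0.52 higher, each without overlap (exact permutation test, p = 0.1, the smallest possible). Vegfa was lower by that measure, at 1.12, 1.53 and 1.38 in DSS 1 to 3 against 2.34, 2.25 and 2.72 in Con 1 to 3, a difference of -1.10 without overlap (exact permutation test, p = 0.1). Tek, at -0.63, was also lower without overlap. In DSS+UA against DSS, Vegfa was 0.68 higher, Flt1 differed by -0.77, Cdh5 by -0.76 and Pecam1 by -0.24, each without overlap. Plvap differed by 0.082 with overlap. In UA+DSS against DSS, Vegfa was 1.07 higher, S1pr1 differed by -0.69 and Pecam1 by -0.23, each without overlap. Plvap differed by -0.00015. The level of Vegfa itself was not raised against DSS. Its log2 fold change was -0.055 ± 0.25 in UA+DSS and -0.67 ± 0.25 in DSS+UA, while the reference was lower in both UA groups. The part of cells other than endothelium in these Vegfa values was not tested. Relative to the reference and against Con, S1pr1 was 0.85 higher in UA+DSS and 1.21 higher in DSS+UA. In the same way Esm1 in DSS+UA differed by -2.19, Kdr by -0.85 and Tek by -0.53, again without overlap.

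**Figure D4:**
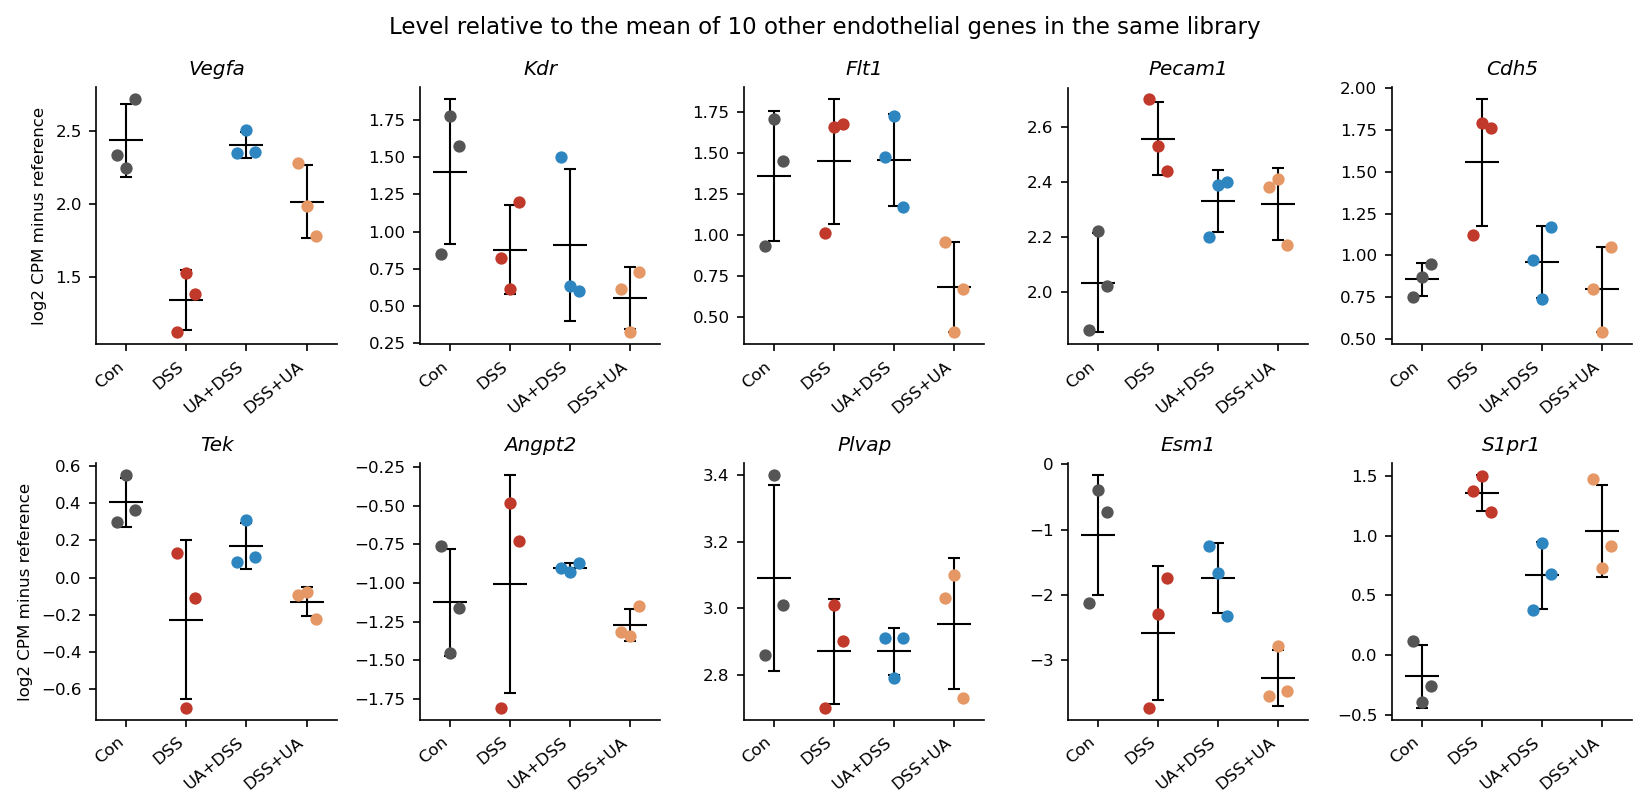
Log2 CPM of each gene minus the mean log2 CPM of 10 other endothelial genes in the same library (vertical axis), as points per library with bars for the mean and SD of 3 libraries. Vegfa is lowest in DSS and S1pr1 lowest in Con, while Plvap spans 2.70 to 3.40 over all libraries.

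Lists of genes linked to blood vessels, Notch signalling or low oxygen were counted in the same way, leaving out the 10 genes. Some genes belong to several lists and are counted in each. In bulk tissue the cells that expressed the listed genes were not resolved. Of 13 inhibitors of angiogenesis and matrix modulators, 8 were raised and 1 lowered in DSS against Con, with a median log2 fold change of 1.48, and 8 were lowered in each UA group against DSS, with medians of -1.44 and -1.58. Col18a1, whose fragment endostatin blocks angiogenesis, rose by 3.69 ± 0.41 and the protease Adamts1 by 3.94 ± 0.47 in DSS, while Hhip, an inhibitor of hedgehog signalling, fell by 1.61 ± 0.44. The guidance factor Sema3a fell by 1.69 ± 0.28 and 1.88 ± 0.28 in UA+DSS and DSS+UA against DSS, and Col15a1 fell by 1.60 ± 0.26 in DSS+UA. Of 15 genes of Notch signalling and of arteries and veins, 6 were raised and 1 lowered in DSS against Con, with Gja5, a gap junction protein of arteries, at 2.15 ± 0.51 and the Notch target Hes1 at -1.22 ± 0.30. Of these, 3 were lowered in UA+DSS against DSS, including Gja4 (-1.42 ± 0.30) and Notch4 (-1.59 ± 0.42), and 5 in DSS+UA against the same libraries, including Sema3g (-1.92 ± 0.29) and Notch1 (-1.32 ± 0.26). Of 16 genes of the response to low oxygen, which is known to induce Vegfa, 7 were raised in DSS against Con and none lowered, among them Egln3 (1.58 ± 0.28) and Hif1a (1.60 ± 0.35). With early UA, Ndrg1 (1.21 ± 0.25) and Ankrd37 (1.84 ± 0.51) were raised and Hif1a (-1.83 ± 0.35) was lowered against DSS, and with late UA Pdk1 (0.74 ± 0.19) was raised and Epas1 (-1.15 ± 0.21), the form of the factor found in endothelium, was lowered.

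**Figure D5:**
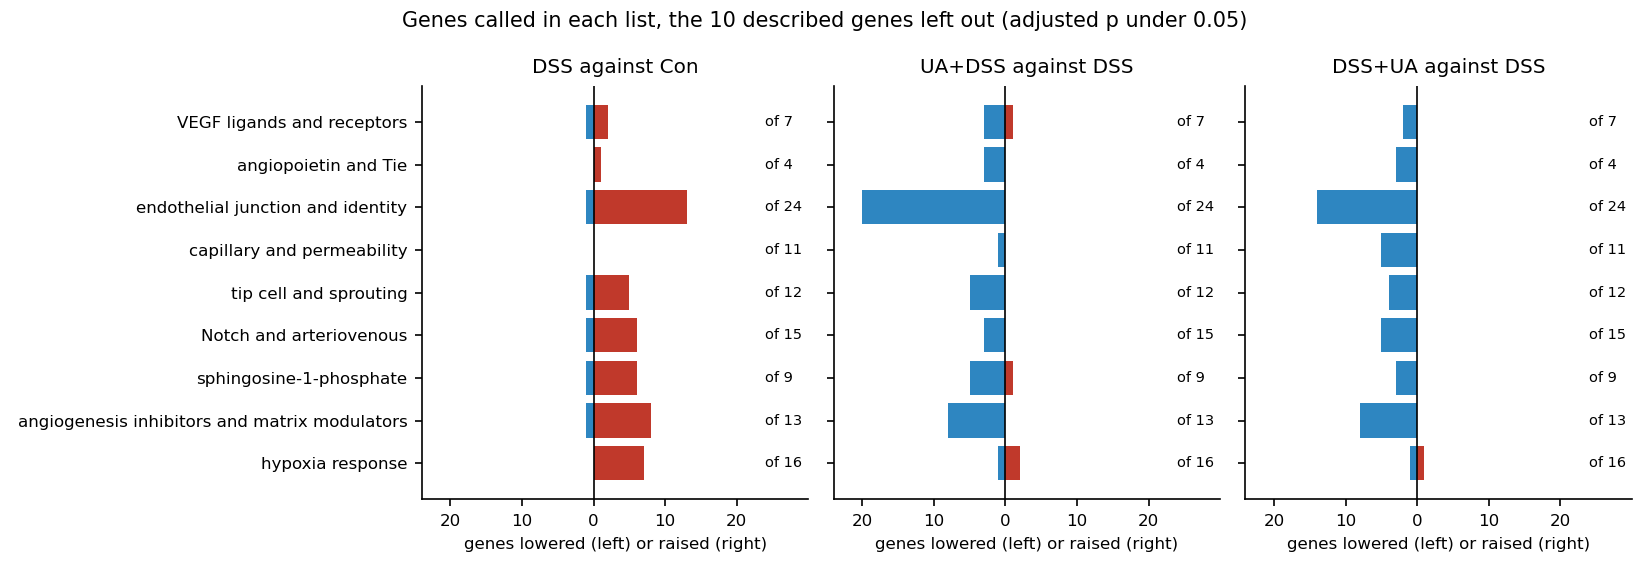
Number of genes called lowered (blue, left of 0) or raised (red, right of 0) in 9 lists in each comparison (horizontal axis, genes), with the number tested beside each bar and the 10 described genes left out. The list of endothelial junctions and identity has 13 raised of 24 in DSS and 20 and 14 lowered in the UA groups against DSS.

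Markers of other cell types changed between the same groups, and they are given as the range of their summed CPM per group. Those of 8 macrophage and monocyte genes were 172 to 420 in Con, 1162 to 3808 in DSS, 300 to 613 in UA+DSS and 454 to 1080 in DSS+UA, and 7 of the 8 were raised in DSS, among them Ccr2 and Cd68. The 7 neutrophil genes summed to 9.25 to 114, 884 to 17907, 27 to 121 and 398 to 1013 in the same order, with 6 raised, led by S100a9 and Cxcr2. The 9 lymphocyte genes summed to 19.1 to 70.3, 90.2 to 453, 31.2 to 73.8 and 87.8 to 211, with 6 raised, led by Ccr7. Of 6 platelet genes, Gp1bb was at 0 in every library and 3 could be tested, of which Ppbp and Pf4 were raised in DSS. Pecam1 and S1pr1 are also expressed by some of these blood cells, and the part of these cells in their values was not tested.

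Markers of cells of the vessel wall and its surroundings also differed. The 7 fibroblast genes summed to 1220 to 1974 CPM in Con, 3390 to 7046 in DSS, 681 to 1732 in UA+DSS and 994 to 2466 in DSS+UA, with 5 raised in DSS, led by Pdgfra and Dcn. Of 7 pericyte genes tested 3 were raised in DSS, led by Kcnj8 and Pdgfrb, and 4 were lowered in DSS+UA against DSS. Of 6 genes of lymphatic endothelium 4 were raised in DSS, led by Pdpn and Lyve1, and 4 were lowered in each UA group against DSS. In DSS+UA against Con 1 of the 6, Pdpn, was raised (1.13 ± 0.30) and 0 were lowered, with Prox1 at -0.91 ± 0.34. The 8 smooth muscle genes summed to 1141 to 3681 CPM in Con and 462 to 890 CPM in DSS+UA, with 3 lowered between these groups. The 8 epithelial genes summed to 10089 to 13963 CPM in Con, 6106 to 9102 in DSS, 10519 to 12746 in UA+DSS and 12285 to 17651 in DSS+UA, with Epcam lowered in DSS and 4, led by Krt19 and Elf3, raised in DSS+UA against DSS. The 5 erythroid genes had 0 calls by edgeR in DSS against Con, with 2 at an unadjusted p below 0.05, 3 by DESeq2 and 0 by limma-voom. Leukocyte markers were lowered in UA+DSS against DSS, with 7 of the 8 macrophage genes, 7 of the 7 neutrophil genes and 4 of the 9 lymphocyte genes called by edgeR. In the same order, DESeq2 called 6, 2 and 5 of these genes in that comparison and limma-voom called 6, 3 and 3. In DSS+UA against DSS, where 8 of the 10 described genes were lowered, edgeR called 1 of the 8 macrophage genes (Itgam, lowered), 0 of the 7 neutrophil genes and 0 of the 9 lymphocyte genes. Of the macrophage genes 6 were at an unadjusted p below 0.05, with 4 called by DESeq2, 1 by limma-voom and a median log2 fold change of -1.54. Of the neutrophil genes 6 were at an unadjusted p below 0.05, with 1 called by DESeq2, 0 by limma-voom and a median log2 fold change of -3.68. Of the lymphocyte genes 1 was, with 0 called by each of these tools. The part of tissue composition in the values of the endothelial genes was not tested.

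Across the 12 libraries the 10 genes moved together to different degrees. Pearson's r of log2 CPM over the 45 pairs ran from -0.051 (Esm1 with S1pr1) to 0.932 (Pecam1 with Cdh5), with a median of 0.702. These points share the 4 groups, so the values describe the pattern over groups as well as within them. The genes outside the set with the most similar pattern, among those of a mean log2 CPM of at least 1, were Tie1 for Pecam1 (r = 0.984), Slc39a14 for Cdh5 (0.988), Adgrf5 for Flt1 (0.974), Podxl for Kdr (0.945), Adgrl4 for Tek (0.942), Emcn for Plvap (0.966), Gja1 for S1pr1 (0.972), Klf7 for Angpt2 (0.934), Tspan6 for Esm1 (0.942) and Tbc1d23 for Vegfa (0.924). Next in order came Cntln and Erg for Kdr, Erg and Efr3b for Flt1, Acvr1 and Rasip1 for Pecam1, Tie1 and Thsd1 for Cdh5, Podxl and Cntln for Tek, Rest and Efr3b for Angpt2, Erg and Tie1 for Plvap, Gnai1 and Wipi1 for Esm1, Sipa1l2 and Rasa3 for S1pr1, and March7 for Vegfa.

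The genes lie on GRCm38 at chr17:46016993-46032369 (Vegfa), chr5:75932827-75978458 (Kdr), chr5:147561604-147726011 (Flt1), chr11:106654217-106750628 (Pecam1), chr8:104101625-104144511 (Cdh5), chr4:94739289-94874976 (Tek), chr8:18690263-18741562 (Angpt2), chr8:71497765-71511752 (Plvap), chr13:113209659-113218098 (Esm1) and chr3:115710433-115715072 (S1pr1). Tek, Esm1 and Cdh5 lie on the plus strand and the others on the minus strand. Angpt2 overlaps Mcph1, Plvap overlaps Gtpbp3, Esm1 overlaps Gzmk and Cdh5 overlaps Gm29682 on the opposite strand, and these pairs share 0 exonic bases.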

How the data were processed

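Total RNA of 12 mouse colon samples, 3 per group, was sequenced. Reads were mapped by the authors to the mouse build GRCm38, with FastQC, HISAT2 and Cuffdiff named in the submitters' processing notes. Counts per Ensembl gene were deposited as whole numbers without normalization. Their annotation, strand setting and program versions: not given in the sources used here. Genes were named by a GRCm38 annotation, and the 37 unnamed genes held 0.00364% of the counts. edgeR 4.0.16 in R 4.3.3 (filterByExpr, TMM, robust quasi-likelihood fit of all 12 samples) tested each pair of groups, with Benjamini-Hochberg adjustment over 17658 genes, and the procedure was tested on simulated data. Log2 CPM used a prior count of 2. Whether replicates are separate animals is stated only as 3 colonic tissues per group, so p-values measure the spread between these samples. No replicates of a group agreed within counting noise.

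The 10 genes and all lists were chosen with earlier results of these data known. Of the list symbols, 1 (Ccl21a) matched 2 identifiers and was left out. The rule for named genes took the 10 genes, the 2 raised and 2 lowered genes of smallest p among those called in each list in DSS against Con and in each UA group against DSS, 9 relatives of Vegfa and Angpt2, and the 3 most similar genes per gene. Some genes that this rule names are not reported here. The lists of other cell types and of Hox genes were described by counts, with some of their genes. Alternatives were other scaling (library size, upper quartile), filters, DESeq2 1.42.0, limma-voom (limma 3.58.1), a 2-group fit, a replicate block, the position score and leaving out each library. The exact permutation tests were run in scipy 1.17.1 (Python 3.11.15), tables were handled in pandas 2.3.3 and numpy 2.4.6, and plots were drawn in matplotlib 3.10.9.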

Additional observations from a re-analysis of the deposited data

Results flagged for a closer look

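The early and late UA groups were compared by the direct test of UA+DSS against DSS+UA. Of the other genes named for their role or as markers, edgeR called 18 (adjusted p below the threshold). It called 0 of the 10 described genes, while DESeq2 called 3. Of the 10, 6 lay higher in UA+DSS without overlap, where 22.7% of all genes did. Many named genes were picked because they were called in comparisons with these UA libraries. The 18 therefore cannot be set against the share of all genes. Higher in UA+DSS were Nrp2 (log2 fold change 1.98), Ndrg1 (1.78), Ptprb (1.31), Clec14a (1.13), Calcrl (0.99), Cd36 (0.92), Sema3g (0.90), Vwf (0.87), Plpp3 (0.81) and Mmrn2 (0.77). Lower in UA+DSS were Cxcr2 (-4.01), Ccr7 (-2.79), Hif1a (-1.56), Notch4 (-1.35), Egln3 (-1.29), Ecscr (-1.17), Cav2 (-0.69) and Pdk1 (-0.66). Over all genes 16.8% were called in this comparison, and the 2 groups also differ in the position score without overlap. With the score as a covariate 0 of all genes were called, Nrp2 and Mmrn2 turned to -0.42 and -0.059, and Clec14a and Notch4 moved to 0.091 and -0.018.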

How the results depend on the processing

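With 3 libraries per group, the described genes called in 3 comparisons fell to 2 when 1 library was left out. The calls over all genes fell as well in those fits, as given above. Leaving out each library in turn, the described genes called ranged from 3 to 5 in DSS against Con, 2 to 7 in UA+DSS against DSS, 2 to 10 in DSS+UA against DSS, 0 to 0 in UA+DSS against Con, 2 to 7 in DSS+UA against Con and 0 to 3 in UA+DSS against DSS+UA. With the position score the counts were 4, 0, 5, 0, 1 and 0 in that order. DESeq2 called 1 gene in UA+DSS against Con and 3 in UA+DSS against DSS+UA, where upper-quartile factors and the filter of 10 counts in every sample called 1 each and the 2-group fit called 3. The cause of these changes was not tested. Correlations of same-numbered samples ran from -0.216 to 0.187. Differently numbered samples were not compared, so these values do not settle whether the replicate numbers pair the samples. With the replicate block the counts were 3, 5, 6, 0, 6 and 0. With the library size alone as scaling, the median of all genes moved to -0.12 in UA+DSS and -0.11 in DSS+UA against DSS, and with upper-quartile factors to -0.11 in DSS+UA against Con.

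Among the 10 described genes, directions reversed only where the gene was not called, under the alternatives tried. In DSS against Con, leaving out each library gave -0.20 to 0.30 for Kdr and -0.10 to 0.093 for Tek, and Tek was 0.054 with library size alone and 0.0085 with the position score. Vegfa in UA+DSS against DSS was 0.016 by limma-voom and -0.29 to 0.30 with each library left out. Between UA+DSS and DSS+UA with the position score, the values were -0.42 for Kdr, -0.10 for Flt1, -0.15 for Pecam1, -0.48 for Plvap, -0.45 for Esm1 and 0.12 for S1pr1, and S1pr1 ran from -0.35 to 0.051 with each library left out. Angpt2 relative to endothelial genes in DSS against Con was 0.12, -0.079 with Pecam1, Cdh5 and Tek as the reference, and -0.15 to 0.52 when each library was left out.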
